A study of Mus musculus with 17 samples.

Results

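The genes of the cytosolic ribosome encode the protein subunits of the particle that makes all proteins of a cell outside its mitochondria. They were taken here from Affymetrix MOE430A arrays of whole mouse lungs by their symbols (*Rpl* or *Rps* with a number, the stalk genes *Rplp*, and *Rpsa*), leaving out pseudogenes and the S6 kinases. Of 12393 genes with a probe set that names 1 gene, 48 were members, 26 of the large subunit and 22 of the small one. Each member was represented by its probe set with the highest mean signal, so no measured difference between groups entered the choice among its probe sets. Between them the members had 100 probe sets, and 23 members had more than 1. A further 102 probe sets name a ribosomal protein gene together with other genes and were kept apart, because their signal cannot be given to 1 gene.

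The study asked how endotoxin changes lung gene expression in the presence and absence of the inducible nitric oxide synthase NOS2. Lungs came from 17 male mice, 1 array per mouse, with 3 *NOS2*-/- mice 7 h after LPS, 3 *NOS2*-/- mice 22 h after LPS and 1 *NOS2*-/- mouse 22 h after saline. The wild-type C57BL/6J groups were 3 mice 7 h after LPS, 3 mice 22 h after LPS and 4 mice 22 h after saline. LPS, the endotoxin of *Escherichia coli*, was injected into a vein at 20 mg/kg, and the saline mice received the solvent alone. Both genotypes were bought from the same supplier, and the paper gives a range of body weights but no age. Saline mice were sampled only at 22 h, so every comparison of LPS at 7 h with saline also sets a 7 h lung against a 22 h lung. The *NOS2*-/- response rests on 1 saline mouse, whose spread the fit takes from the other groups.

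Ribosomal proteins are made in matched amounts and join ribosomal RNA in the nucleolus, with the help of biogenesis factors that do not stay in the finished ribosome. Their mRNAs are abundant and belong to the TOP mRNAs, which start with a run of pyrimidines and whose translation is switched on by the kinase mTORC1. MYC raises transcription of ribosomal protein and biogenesis genes. In inflamed lungs the mixture of cells changes as leukocytes enter. In whole lung, fewer cells of a type and less RNA per cell cannot be told apart.

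Promoter stretches are shown for 8 members on which the results below turn, 6 regular subunits and the variant forms *Rpl7l1* and *Rps27l*, because many members share a short motif there. Sequences are from RefSeq on build GRCm38.p6, and 42 of the 48 members had one. Each stretch covers 120 bases before to 10 bases after a start of the gene, the one furthest upstream among those that the RefSeq promoter table holds, 5′ to 3′ on the strand of the gene. Capitals mark CGGAAG or its reverse complement CTTCCG, the core motif bound by ETS factors such as GABP. The stretches lie, in the order shown, at chr10:80292311-80292440 (+ strand), chrX:102189382-102189511 (- strand), chr1:72711140-72711269 (+ strand), chr4:152324316-152324445 (+ strand), chr17:27635235-27635364 (- strand), chr9:44407594-44407723 (+ strand), chr17:46782647-46782776 (- strand) and chr9:66945966-66946095 (+ strand). For *Rps27l* the annotated gene begins further upstream than the start used.
Rps15: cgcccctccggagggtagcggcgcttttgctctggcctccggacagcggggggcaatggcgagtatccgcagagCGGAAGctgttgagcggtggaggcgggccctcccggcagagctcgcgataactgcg
Rps4x: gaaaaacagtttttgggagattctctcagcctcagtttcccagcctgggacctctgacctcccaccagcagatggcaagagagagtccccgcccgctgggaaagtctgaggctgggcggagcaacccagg
Rpl37a: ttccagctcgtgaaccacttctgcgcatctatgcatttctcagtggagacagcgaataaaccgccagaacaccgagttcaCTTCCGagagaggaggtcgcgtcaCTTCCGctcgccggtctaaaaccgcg
Rpl22: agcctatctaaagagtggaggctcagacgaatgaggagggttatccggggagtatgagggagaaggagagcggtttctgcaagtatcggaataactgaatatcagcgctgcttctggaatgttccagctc
Rps10: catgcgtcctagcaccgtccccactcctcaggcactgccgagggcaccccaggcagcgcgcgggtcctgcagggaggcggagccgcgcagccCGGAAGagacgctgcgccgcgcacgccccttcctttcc
Rps25: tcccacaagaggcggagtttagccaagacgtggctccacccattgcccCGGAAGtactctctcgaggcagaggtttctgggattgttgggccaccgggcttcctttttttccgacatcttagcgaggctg
Rpl7l1: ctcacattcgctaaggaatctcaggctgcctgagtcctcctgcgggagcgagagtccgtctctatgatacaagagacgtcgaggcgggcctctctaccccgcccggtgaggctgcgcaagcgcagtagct
Rps27l: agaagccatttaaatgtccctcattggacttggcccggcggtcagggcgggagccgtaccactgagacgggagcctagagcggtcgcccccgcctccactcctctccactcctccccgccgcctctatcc

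Over the full 300 bases, from 250 before to 50 after the start, CGGAAG stood on either strand in 29 of 42 member promoters (69.0%), against 17.2% of 27025 RefSeq promoters. A run of at least 6 C or T within 10 bases of the start was found in 22 of 42 (52.4%), against 20.0% of all promoters. Such a run may lie wholly before the start, outside the mRNA, so these shares do not count TOP mRNAs. The palindromic E-box CACGTG, to which MYC binds, was in 7.14% of member promoters and 7.24% of all promoters, and TATAAA in 14.3% of member promoters and 14.2% of all promoters. The pyrimidine run was read around the start on the strand of the gene, and the other motifs on both strands of the 300 bases. The pyrimidine run can share bases with CTTCCG. Among the 8 promoters shown, those of *Rps15*, *Rpl37a*, *Rps10* and *Rps25* hold the ETS core within the stretch, that of *Rps27l* holds it just past the stretch, and those of *Rps4x*, *Rpl22* and *Rpl7l1* do not hold it in the 300 bases.

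The arrays were alike within groups with 1 exception. Over all probe sets, mice of a group correlated at 0.992 or higher, except for wild-type LPS 22 h replicate 2, whose correlations with its group mates were as low as 0.949. Leaving it out also narrows the spread that all comparisons share, and the members whose call changed without it are named below. Only for *NOS2*-/- LPS mice against wild-type saline mice are counts given without names. The *NOS2*-/- saline mouse stood apart in another way. Its 10 measured squamous epithelium genes summed to a log2 signal of 14.67, against 11.19 to 11.29 in wild-type saline mice, and its 13 skeletal muscle genes to 14.07, against 11.08 to 11.22. The probe set of *Nos2* read 8.94 ± 0.08 (SD, n = 3) in *NOS2*-/- mice at 7 h after LPS and 9.15 ± 0.14 (SD, n = 3) at 22 h, against 9.0 ± 0.07 (SD, n = 3) and 8.49 ± 0.31 (SD, n = 3) in wild-type mice at these times. It was not lower in the knockout, and whether it lies in the deleted part is not known, so it does not check the genotype. Lung was as labelled, since the 8 measured alveolar type 2 genes, such as surfactant genes, summed to log2 signals of 16.43 to 16.97 over the 17 mice.

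Most members gave very bright and very steady signals. The median member had a mean log2 signal of 12.72 over the 17 mice, against 8.55 for all probe sets, and 23 of 48 members were above the 99th percentile of the array. A signal depends on the probe as well as on the RNA, so this is a property of the probe sets and no order of mRNA amounts. *Rps29*, *Rps14*, *Rps28*, *Rpl41* and *Rpl7a* were the brightest, and *Rpl39l*, *Rpl3l*, *Rpl14*, *Rpl27a* and *Rpl12* the dimmest, from 5.94 to 8.74. Between the highest and the lowest of the 6 group means the median member moved by 0.33 log2 units, and 40 members moved by less than 0.5. The SD between mice of a group was 0.09 for the median member. *Rpl6*, a large-subunit gene, had the smallest range of group means at 0.09, followed by *Rps2* (0.15), *Rpl27* (0.17), *Rpl8* (0.18) and *Rps3a1* (0.20). The largest ranges were those of *Rpl27a* (1.63), *Rpl12* (0.83), *Rps6* (0.64), *Rps25* (0.62) and *Rpl7l1* (0.57), each with a mean signal below 10. Over the 17 mice, the 33 members with a mean above 12, a limit set after seeing the signals, had a median pairwise correlation of 0.65, and the 15 others one of 0.05. These mice share groups and arrays, so the correlations are descriptions.

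**Figure D1:**
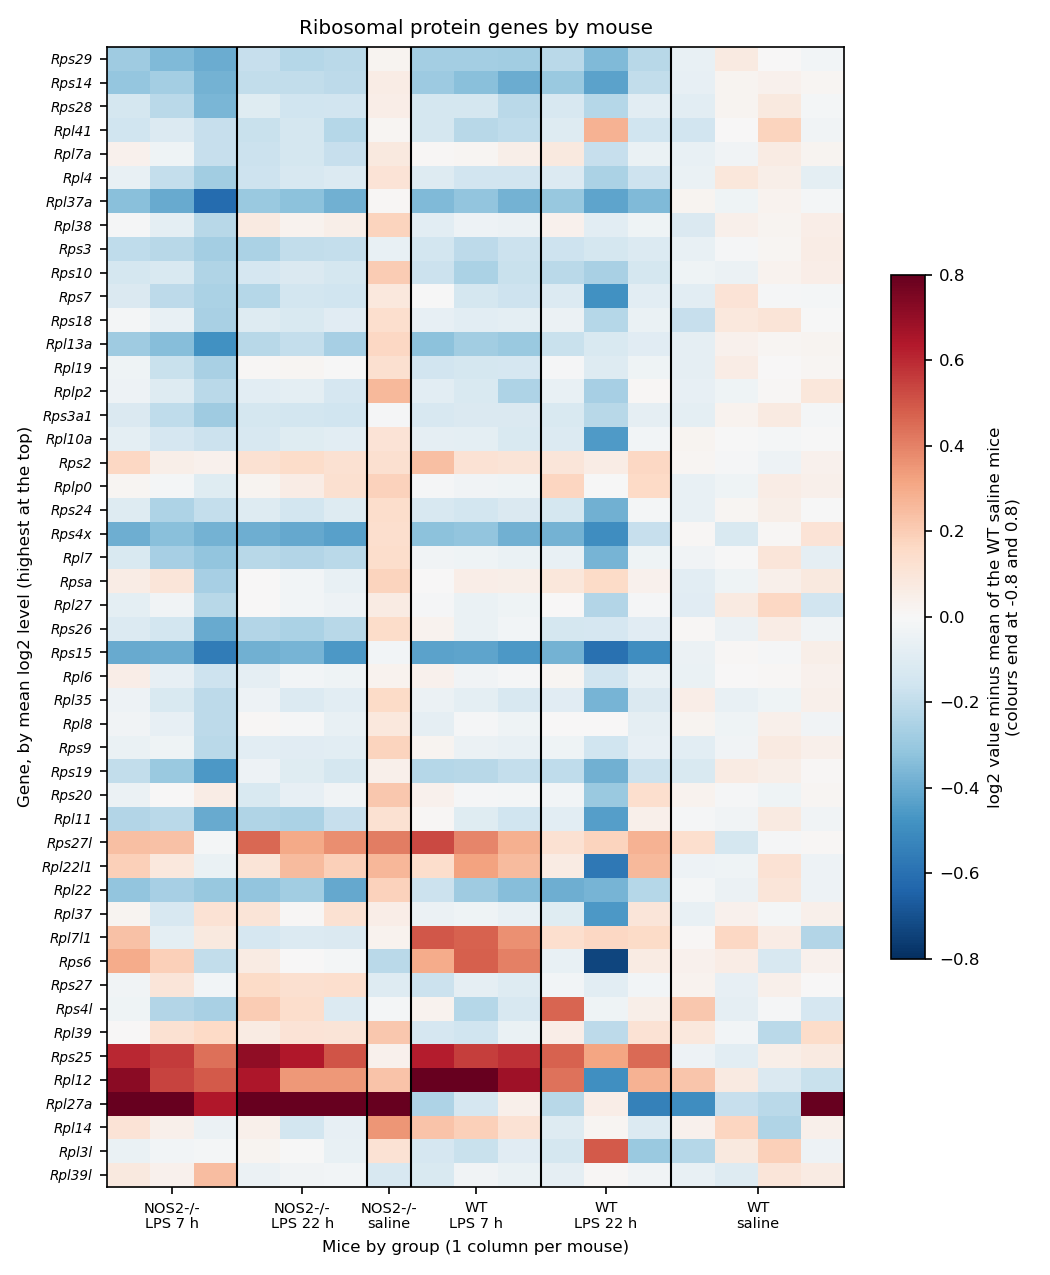
Log2 value of each of the 48 members (rows, brightest at the top) in each of the 17 mice (columns, by group), minus the mean of the 4 wild-type saline mice; red is higher and blue lower. Bright members of the upper rows are mostly pale blue after LPS, *Rps15*, *Rps4x* and *Rpl37a* stand out in blue, *Rps25* and *Rpl12* in red, and *Rpl27a* is red in the NOS2-/- mice and in 1 wild-type saline mouse.

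In wild-type lungs few ribosomal protein genes were called after LPS with the values as deposited, and they changed by little. At 7 h, 4 of 48 members were higher and 10 lower than in saline mice at a limma adjusted p under 0.05, where 14.4% of all 22626 probe sets were higher, 17.9% lower and 32.3% called in either direction. The members' shares, 8.33% higher and 20.8% lower, were near or below those of the whole array. At 22 h, 1 member was higher and 8 were lower (2.08% and 16.7%), where 12.8% of all probe sets were higher, 20% lower and 32.8% called. The median member changed by -0.09 log2 units at 7 h and -0.11 at 22 h, and the median probe set by -0.05 and -0.00. At 7 h 37 of 48 log2 fold changes were below 0, and at 22 h 38. With all arrays none of the 33 members with a mean signal above 12 was called higher at either time. Only *Rpl12* and *Rps25* at 7 h were both called and changed by 1.5-fold or more, and no member was at 22 h. Without wild-type LPS 22 h replicate 2 the counts became 7 higher and 12 lower at 7 h (19.4% and 26.7% of all probe sets), and 3 higher and 7 lower at 22 h (19.5% and 21.7%). The calls gained at 7 h were rises of *Rpl22l1*, *Rps2* and *Rps6* (0.24, 0.15 and 0.39, adjusted p = 0.0120, 0.0296 and 0.0018) and falls of *Rpl41* and *Rps28* (-0.19 and -0.17, adjusted p = 0.0276 and 0.0318). Other probe sets of *Rpl41* did not fall at 7 h. With all arrays the dimmer ones (means 6.91 and 8.36) were higher by 0.60 and 0.42 (adjusted p = 0.0067 and 0.0112). A second bright one (mean 13.6) changed by 0.03 (adjusted p = 0.763). At 22 h *Rpl12* and *Rplp0* became called as higher, and *Rps19* was no longer called. After quantile normalization 5 members were higher and 22 lower at 7 h (10.4% and 45.8%), where 15.1% of all probe sets were higher and 18.9% lower, and 1 was higher and 15 lower at 22 h (2.08% and 31.2%), where 15.3% were higher and 19.7% lower. By that scaling the share of members called lower was thus above that of the array at both times. Without wild-type LPS 22 h replicate 3, 15 members were called at 22 h (31.2%), where 35.8% of all probe sets were. The 7 h and 22 h comparisons share their saline mice.

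*Rps15*, a small-subunit protein near the decoding centre, had the largest fall among called members in wild-type mice. Its log2 levels were 12.62, 12.63 and 12.47 in *NOS2*-/- mice at 7 h after LPS, 12.64, 12.65 and 12.56 at 22 h, and 13.01 in the *NOS2*-/- saline mouse. In wild-type mice they were 12.60, 12.60 and 12.56 at 7 h after LPS and 12.65, 12.43 and 12.53 at 22 h, against 12.98, 13.04, 13.02 and 13.07 after saline. No LPS mouse of either genotype reached any saline mouse. The level was 1.35-fold lower in *NOS2*-/- mice at 7 h (a log2 change of -0.43 with a standard error of 0.10, limma adjusted p = 0.00445) and 1.31-fold lower at 22 h (-0.39, standard error 0.10, adjusted p = 0.00777). In wild-type mice it was 1.35-fold lower at 7 h (-0.44, standard error 0.06, adjusted p = 7.25e-05) and 1.40-fold lower at 22 h (-0.49, standard error 0.06, adjusted p = 2.34e-05).

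*Rps4x*, the X-linked gene of another small-subunit protein, was lower as well. It had log2 levels of 12.78, 12.84 and 12.79 in *NOS2*-/- mice at 7 h after LPS and 12.78, 12.76 and 12.74 at 22 h, against 13.30 in the *NOS2*-/- saline mouse. Wild-type mice had 12.84, 12.85 and 12.79 at 7 h after LPS and 12.80, 12.67 and 12.98 at 22 h, against 13.18, 13.05, 13.18 and 13.28 after saline. Again the LPS and saline mice did not overlap. The changes were -0.50 at 7 h and -0.54 at 22 h in *NOS2*-/- mice (standard error 0.11, adjusted p = 0.00373 and 0.00167), and -0.34 and -0.35 in wild-type mice (standard error 0.07, adjusted p = 0.00174 and 0.0014).

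*Rpl37a*, a zinc-binding large-subunit protein, had levels of 13.34, 13.27 and 13.07 in *NOS2*-/- mice at 7 h after LPS and 13.38, 13.35 and 13.29 at 22 h, against 13.69 in the *NOS2*-/- saline mouse. In wild-type mice the values were 13.32, 13.36 and 13.30 at 7 h after LPS and 13.38, 13.26 and 13.33 at 22 h, against 13.70, 13.65, 13.71 and 13.66 after saline. All LPS mice were below all saline mice. The change was -0.46 at 7 h (standard error 0.10, adjusted p = 0.00356) and -0.35 at 22 h (standard error 0.10, adjusted p = 0.0181) in *NOS2*-/- mice. In wild-type mice it was -0.35 at 7 h (standard error 0.07, adjusted p = 0.000725) and -0.36 at 22 h (standard error 0.07, adjusted p = 0.00057). A second bright probe set of the gene changed by -0.42 and -0.30 in *NOS2*-/- mice and by -0.29 and -0.27 in wild-type mice, and passed each time. The third, dim one (mean 8.72) was opposite in *NOS2*-/- mice at 22 h, where it was 0.56 higher (adjusted p = 0.0141). The *NOS2*-/- call at 22 h was lost without *NOS2*-/- LPS 22 h replicate 3 (adjusted p = 0.0511).

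*Rpl22*, whose protein binds RNA and is known in mice for its role in T cell development, had levels of 10.73, 10.77 and 10.73 in *NOS2*-/- mice at 7 h after LPS and 10.72, 10.76 and 10.63 at 22 h, against 11.23 in the *NOS2*-/- saline mouse. Wild-type mice had 10.87, 10.76 and 10.70 at 7 h after LPS and 10.65, 10.66 and 10.81 at 22 h, against 11.02, 10.99, 11.14 and 11.001 after saline. The groups did not overlap. Changes were -0.48 at 7 h and -0.52 at 22 h in *NOS2*-/- mice (standard error 0.10, adjusted p = 0.00222 and 0.000968), and -0.27 and -0.33 in wild-type mice (standard error 0.07, adjusted p = 0.00519 and 0.000963).

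Other falls in wild-type mice were smaller. *Rps14*, which lies at the platform of the small subunit, changed by -0.34 at 7 h and -0.31 at 22 h, and *Rps29*, the brightest member, by -0.27 and -0.26. A second *Rps14* probe set (mean 12.8) changed by -0.17 (adjusted p = 0.0637) and -0.23 (adjusted p = 0.0159). The other *Rps29* probe sets, also bright, did not pass at 7 h (-0.18 and -0.06, adjusted p = 0.128 and 0.710). At 22 h they changed by -0.24 and -0.14 (adjusted p = 0.0336 and 0.334). *Rpl13a*, whose protein leaves the ribosome of human monocytes after interferon-gamma to silence inflammatory mRNAs, changed by -0.30 at 7 h (adjusted p = 0.00103), and its change of -0.13 at 22 h did not pass (adjusted p = 0.117). Its 3 other probe sets also passed at 7 h, and at 22 h 2 of them did, with -0.37 (mean signal 11.8, adjusted p = 0.00345) and -0.82 (mean 7.70, adjusted p = 0.0011). *Rps19*, the gene most often mutated in human Diamond-Blackfan anaemia, changed by -0.21 at 7 h and -0.25 at 22 h. Its call at 7 h (adjusted p = 0.0427) was lost when any of 6 of the 7 mice compared was left out, all but wild-type saline replicate 1 (adjusted p up to 0.113), and its call at 22 h was lost without wild-type LPS 22 h replicate 2 (adjusted p = 0.0509). *Rps10*, a protein of the small-subunit head, changed by -0.20 at 7 h and -0.21 at 22 h, and its 7 h call was lost without wild-type LPS 7 h replicate 2 (adjusted p = 0.0734). *Rps3*, which also acts outside the ribosome with NF-kB, changed by -0.18 at 7 h, a call lost without wild-type LPS 7 h replicates 2 or 3 or saline replicate 4 (adjusted p = 0.0833, 0.0563 and 0.0521).

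*Rps25*, a small-subunit protein needed for internal ribosome entry on some viral mRNAs, rose in both genotypes. Its single probe set, with a mean signal of 8.91, read 9.13, 9.09 and 8.97 in *NOS2*-/- mice at 7 h after LPS and 9.24, 9.17 and 9.04 at 22 h, against 8.56 in the *NOS2*-/- saline mouse. Wild-type mice had 9.16, 9.08 and 9.11 at 7 h after LPS and 9.003, 8.85 and 8.98 at 22 h, against 8.49, 8.45, 8.58 and 8.61 after saline. Every LPS mouse was above every saline mouse. The rise was 1.42-fold in *NOS2*-/- mice at 7 h (a log2 change of 0.50, standard error 0.11, adjusted p = 0.00265) and 1.503-fold at 22 h (0.59, standard error 0.11, adjusted p = 0.000637). In wild-type mice it was 1.504-fold at 7 h (0.59, standard error 0.07, adjusted p = 8.16e-06) and 1.33-fold at 22 h (0.41, standard error 0.07, adjusted p = 0.000264).

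With all arrays in the fit, the other called wild-type rises were at 7 h. *Rpl12*, part of the base of the large-subunit stalk, read 9.23, 9.35 and 9.06 at 7 h after LPS, against 8.60, 8.46, 8.27 and 8.20 after saline, without overlap. This was 1.78-fold (0.83, standard error 0.18, adjusted p = 0.00161), and at 22 h the change was 0.07 (adjusted p = 0.784). The lowest of the 22 h mice was replicate 2, and the 22 h change of *Rpl12* was 0.36 and passed without it (adjusted p = 0.0206). *Rpl7l1*, a variant of *Rpl7*, read 9.71, 9.69 and 9.57 at 7 h, against 9.22, 9.38, 9.27 and 8.98 after saline (1.36-fold, adjusted p = 0.00106). *Rps27l*, a variant of *Rps27* and in human cells a target of p53, read 11.61, 11.47 and 11.37 at 7 h, against 11.22, 10.95, 11.08 and 11.10 after saline (1.32-fold, adjusted p = 0.00203). The other *Rps27l* probe sets, about as bright (means 11.2 and 11.1), changed by 0.29 and 0.37 at 7 h. They did not pass (adjusted p = 0.0973 and 0.0697). At 22 h the 2 variants had changed by 0.15 and 0.19, and neither passed the test (adjusted p = 0.230 and 0.111).

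**Figure D2:**
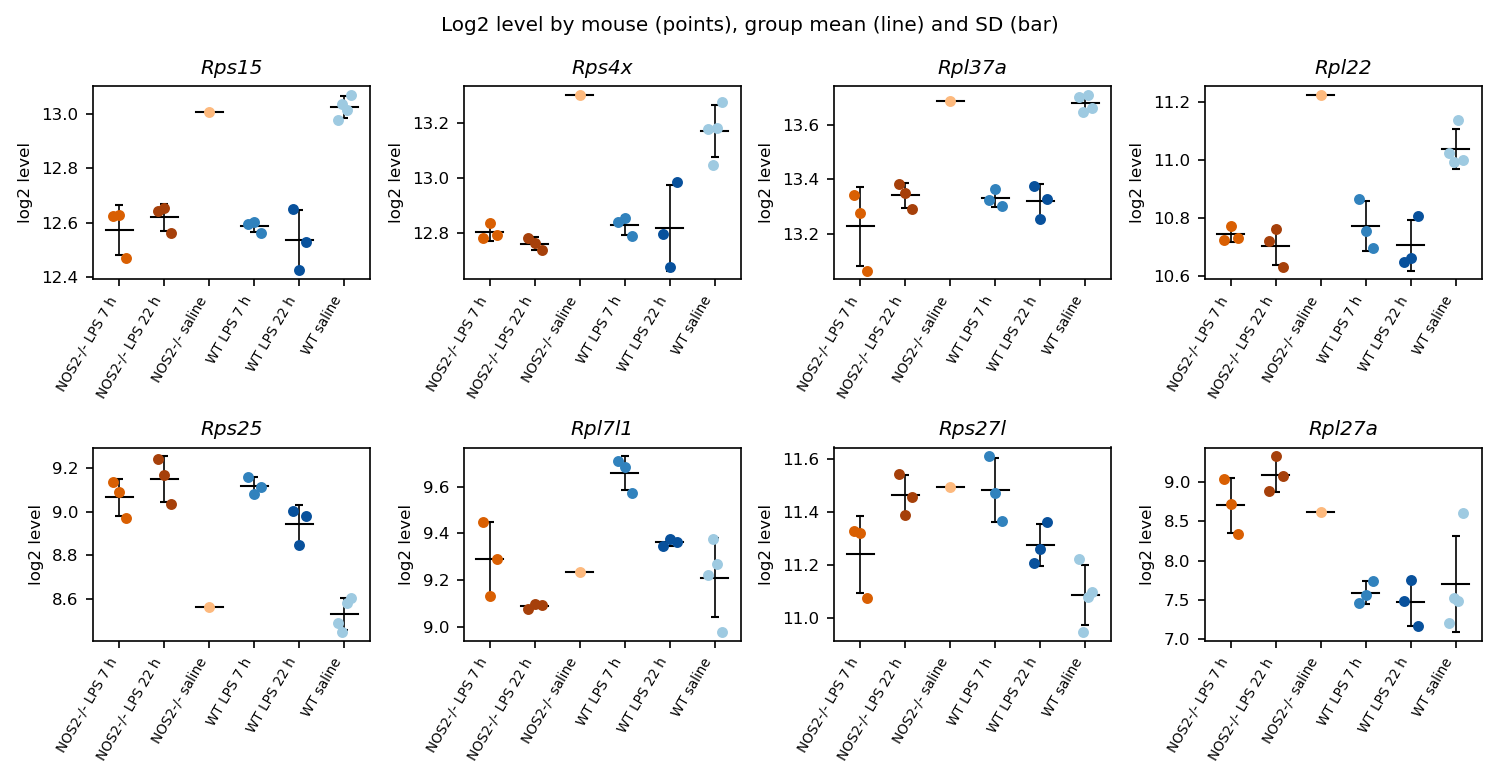
Log2 level of 8 members in each mouse (points) with the group mean (line) and SD (bar, groups of 3 or 4), NOS2-/- groups left of wild-type groups and LPS left of saline; the vertical axes differ between panels and do not start at 0. In the panels of *Rps15*, *Rps4x*, *Rpl37a* and *Rpl22* all LPS mice lie below all saline mice, and in that of *Rps25* above them.

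In *NOS2*-/- lungs, set against the single *NOS2*-/- saline mouse, nearly all called members were lower. At 7 h after LPS 1 member was higher and 14 were lower (2.08% and 29.2%), where 8.78% of all probe sets were higher, 13.7% lower and 22.5% called. At 22 h 2 were higher and 10 lower (4.17% and 20.8%), where 11.6% of all probe sets were higher, 16% lower and 27.6% called. The median member changed by -0.24 at 7 h and -0.19 at 22 h, and the median probe set by 0.04 and 0.03. Of the 14 members lower at 7 h, 9 were also among the 10 lower in wild-type mice. At 22 h 5 were shared, of 10 in *NOS2*-/- mice and 8 in wild-type mice. The comparisons of the 2 genotypes have no mice in common but share the estimate of spread of each probe set. How many of all probe sets were lower in both was not counted, so these overlaps are descriptions. Without wild-type LPS 22 h replicate 2, which enters here only through the shared estimate of spread, 24 members were lower and 1 higher at 7 h (21.8% and 16.4% of all probe sets), and 21 were lower and 2 higher at 22 h (23.1% and 18.1%). The calls gained were falls of *Rpl10a*, *Rpl11*, *Rpl35*, *Rpl4*, *Rps24*, *Rps7* and *Rps9* at both times, of *Rpl14*, *Rpl38* and *Rplp0* at 7 h, and of *Rpl7a*, *Rps14*, *Rps20* and *Rps29* at 22 h. After quantile normalization 20 members were lower at 7 h and 20 at 22 h (41.7% each), where 14.4% and 17% of all probe sets were. Without *NOS2*-/- LPS 22 h replicate 3, 7 members were called at 22 h (14.6%, against 23.6% of all probe sets), and without *NOS2*-/- LPS 7 h replicate 3, 10 at 7 h (20.8%, against 19.6%).

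These counts rest on a saline mouse that stood apart. The median member of the *NOS2*-/- saline mouse lay 0.12 log2 units above the wild-type saline mean, the highest of all 17 mice, where wild-type saline mice lay between -0.05 and 0.03. Its squamous epithelium and skeletal muscle genes were raised as given above, by a list median of 1.80 and 2.25, and its 10 cardiac muscle genes by 1.11. Their part in the result was not tested. Against the 4 wild-type saline mice, 3 members were higher and 15 lower in *NOS2*-/- mice at 7 h (15.4% and 21.3% of all probe sets, 36.7% in either direction), and 3 were higher and 10 lower at 22 h (17.9% and 22.8%, together 40.8%), with median changes of -0.12 and -0.09. By this measure the share of members lower at 22 h, 20.8%, was close to that of the array. Leaving out wild-type LPS 22 h replicate 2, 3 were higher and 20 lower at 7 h (23.1% and 28.2% of all probe sets), and 6 were higher and 16 lower at 22 h (23.4% and 28.7%). These contrasts also hold the genotype difference.

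Among the falls in *NOS2*-/- mice some were called in wild-type mice at the same time and some were not, which is no test of a difference between genotypes. *Rpl13a*, called in wild-type mice at 7 h, read 13.07, 13.01 and 12.87 in *NOS2*-/- mice 7 h after LPS, and 13.13, 13.16 and 13.09 at 22 h, against 13.52 in the saline mouse of that genotype, and changed by -0.53 at 7 h (standard error 0.09, adjusted p = 0.00047) and -0.39 at 22 h (adjusted p = 0.00429). *Rps10*, *Rps14* and *Rps29*, lower in wild-type mice as well, changed by -0.37, -0.38 and -0.37 at 7 h. The second *Rps14* probe set changed by -0.23 and did not pass (adjusted p = 0.135). The other *Rps29* ones changed by -0.40 and -0.28 (adjusted p = 0.0306 and 0.234). The falls of the next 4 members were not called in wild-type mice. *Rps26*, which contacts mRNA at the exit site, changed by -0.37 and -0.38, and *Rpl7*, a large-subunit protein, by -0.38 and -0.37. The other *Rpl7* probe sets (means 12.2 and 11.7) did not pass at 7 h (-0.33 and -0.33, adjusted p = 0.281 and 0.142). Nor did they at 22 h (-0.19 and -0.31, adjusted p = 0.564 and 0.158). *Rplp2*, one of the acidic stalk proteins that recruit elongation factors, changed by -0.37 and -0.36. Against the 4 wild-type saline mice *Rplp2* changed by -0.12 and -0.10 and was not called (adjusted p = 0.245 and 0.342). *Rpl14*, a dim probe set, changed by -0.41 at 22 h, and by -0.06 against wild-type saline mice (adjusted p = 0.666). *Rps27* was higher by 0.24 at 22 h (adjusted p = 0.0446), a call lost without any of the 3 LPS mice (adjusted p = 0.0778 to 0.0924).

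Some of these calls rest on single mice. At 7 h *Rpl7*, *Rpl19*, *Rps19* and *Rps28* lost the call without *NOS2*-/- LPS 7 h replicate 2 (adjusted p = 0.0780, 0.0858, 0.0564 and 0.0735) or without replicate 3 (0.0885, 0.101, 0.0885 and 0.123), and *Rplp2* without replicate 3 (0.0688). At 22 h *Rpl7* lost it without any of the 3 mice (0.0633 to 0.0689), *Rplp2* without replicate 1 or 3 (0.0507 and 0.0682), and *Rpl14* without replicate 2 or 3 (0.0755 and 0.0566).

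The LPS response of the members was also compared between genotypes directly, with an interaction contrast chosen after the data had been seen. With all arrays no member passed at 7 h, where 1.09% of all probe sets did (0.137% with a higher and 0.955% with a lower response in *NOS2*-/- mice), and none at 22 h, where 4.7% did (2.52% higher and 2.18% lower). At an unadjusted p under 0.05 there were 8 members at 7 h and 3 at 22 h. The median difference of responses, *NOS2*-/- minus wild-type, was -0.15 at 7 h and -0.07 at 22 h, against 0.04 and 0.03 for the median probe set. *Rps27l* came nearest at 7 h. It read 11.33, 11.32 and 11.07 in *NOS2*-/- mice at 7 h after LPS, against 11.50 in the *NOS2*-/- saline mouse, and the response was 0.65 lower than in wild-type mice (standard error 0.16, adjusted p = 0.0654). Without wild-type LPS 22 h replicate 2, 4 members had a lower response in *NOS2*-/- mice at 7 h, where 9.48% of all probe sets were called, and 1 at 22 h, where 15.2% were. These were *Rps27l*, *Rpl14*, *Rpl22l1* and *Rpl7* at 7 h (adjusted p = 0.0139, 0.0413, 0.0499 and 0.0475) and *Rps20* at 22 h (adjusted p = 0.0301).

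Between genotypes after LPS, 1 member passed the test at 1 time with all arrays. At 7 h no member passed between *NOS2*-/- and wild-type mice, where 2.01% of all probe sets did (0.526% higher and 1.48% lower), and 8 members had an unadjusted p under 0.05. The median difference was -0.06 (0.011 after quantile normalization), and 47 of 48 differences were within 0.5 log2 units. At 22 h 1 member was higher in *NOS2*-/- mice and none lower (9.63% and 6.81% of all probe sets, 16.4% in either direction), and the median difference was 0.02 (-0.035 after quantile normalization). Without wild-type LPS 22 h replicate 2 the counts were 1 higher and 6 lower at 7 h (26.9% of all probe sets called), and 1 higher and 1 lower at 22 h (26.6%). The calls gained at 7 h were a higher *Rpl27a* and lower *Rpl11*, *Rpl7*, *Rpl7l1*, *Rps26*, *Rps27l* and *Rps6* (differences of -0.20 to -0.37, adjusted p = 0.00985 to 0.0491), and at 22 h a lower *Rpl11* (-0.21, adjusted p = 0.0498). Without wild-type LPS 22 h replicate 3, 3 members were called at 22 h (6.25%, against 18.3% of all probe sets), and without *NOS2*-/- LPS 7 h replicate 1, 1 at 7 h (2.08%, against 4.23%). After quantile normalization 1 was higher and 3 lower at 22 h (2.08% and 6.25%, against 9.92% and 9.41% of all probe sets).

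The member called at 22 h was *Rpl27a*, a large-subunit protein. Its dim probe set read 9.04, 8.73 and 8.34 in *NOS2*-/- mice at 7 h after LPS, 8.88, 9.33 and 9.07 at 22 h, and 8.62 in the *NOS2*-/- saline mouse. In wild-type mice it read 7.46, 7.57 and 7.74 at 7 h after LPS, 7.48, 7.76 and 7.16 at 22 h, and 7.21, 7.52, 7.49 and 8.60 after saline. The 7 *NOS2*-/- mice thus lay together, and wild-type saline replicate 4 lay with them. At 22 h after LPS the difference was 3.09-fold (1.63, standard error 0.28, adjusted p = 0.00113), and at 7 h it was 1.11 and did not pass (adjusted p = 0.0540), though it did without wild-type LPS 22 h replicate 2 (adjusted p = 0.00717). A second, dimmer probe set of the gene (mean 6.25) differed by -0.08 at 22 h (adjusted p = 0.717). LPS did not move the gene past the threshold in either genotype at either time.

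Between 7 h and 22 h after LPS few members were called. In *NOS2*-/- mice none was, where 7.81% of all probe sets were called, 4.65% higher and 3.16% lower (6 members at an unadjusted p under 0.05), and the median change was 0.04. *Rps19* was higher at 22 h when wild-type LPS 22 h replicate 2 was left out (0.23, adjusted p = 0.0283), where 19.9% of all probe sets were called. In wild-type mice none was higher and 2 were lower at 22 h than at 7 h (3.15% and 7.68% of all probe sets, 10.8% in either direction). *Rpl12* read 8.82, 7.89 and 8.66 at 22 h, against the 7 h values given above (-0.76, adjusted p = 0.0168). *Rps6*, the small-subunit protein that S6 kinases phosphorylate downstream of mTORC1, read 9.07, 8.40 and 9.19 at 22 h, against 9.43, 9.61 and 9.53 at 7 h (-0.64, adjusted p = 0.0212). In both genes replicate 2 was the lowest mouse, and without it the changes were -0.47 (adjusted p = 0.0134) and -0.39 (adjusted p = 0.0214). The *Rpl12* call was lost without wild-type LPS 7 h replicate 1 or 2 (adjusted p = 0.0564 and 0.0788), and the *Rps6* call without replicate 2 or 3 (adjusted p = 0.0861 and 0.0687). After quantile normalization 3 members were higher and 3 lower in wild-type mice (6.25% each, against 5.46% and 7.41% of all probe sets). For no member did the genotype difference in the change from 7 h to 22 h pass the test (3.04% of all probe sets, 2.49% with a higher and 0.544% with a lower change in *NOS2*-/- mice, 5 members at an unadjusted p under 0.05).

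Of the 48 members, 6 are variant forms encoded by genes of their own. *Rpl22l1*, which the Rpl22 protein represses in mice, changed by -0.19 at 7 h and -0.08 at 22 h in *NOS2*-/- mice and by 0.24 and -0.08 in wild-type mice, and none of these passed the test, while *Rpl22* was lower in each comparison. The *Rpl22l1* rise in wild-type mice at 7 h passed when wild-type LPS 22 h replicate 2 was left out, as given above. *Rpl7l1* was higher in wild-type mice at 7 h, where *Rpl7* changed by -0.04, and it changed by 0.05 and -0.15 in *NOS2*-/- mice without passing. *Rps27* changed by -0.12 at 7 h in wild-type mice, where the brightest probe set of *Rps27l* was higher and its others did not pass. *Rpl3l*, the heart and skeletal muscle form of *Rpl3*, and *Rpl39l*, a form best known from testis, were among the dimmest members and were not called in any of the 4 LPS comparisons. The range of group means was 0.25 for *Rpl3l* and 0.24 for *Rpl39l*. *Rpl39* and *Rps4l*, named after *Rps4x*, were not called either. The *NOS2*-/- saline mouse, whose skeletal muscle genes were raised, read 6.81 for *Rpl3l*, against 6.46, 6.77, 6.88 and 6.65 in wild-type saline mice.

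*Rplp0*, the protein that anchors the stalk and a common reference gene for qPCR, changed by -0.22 and -0.12 in *NOS2*-/- mice and by -0.02 and 0.11 in wild-type mice at 7 h and 22 h, and *Rpsa*, also known as a laminin receptor, by -0.22 and -0.20 in *NOS2*-/- mice and 0.04 and 0.09 in wild-type mice. With all arrays neither passed the test in any of these comparisons (adjusted p = 0.117 or higher). When wild-type LPS 22 h replicate 2 was left out, *Rplp0* was lower in *NOS2*-/- mice at 7 h (-0.22, adjusted p = 0.0398) and higher in wild-type mice at 22 h (0.17, adjusted p = 0.0339). *Fau*, whose product carries the small-subunit protein eS30 and which the symbol rule leaves out, changed by -0.45 in *NOS2*-/- mice at 7 h (adjusted p = 0.0142) and by -0.27 at 22 h, which did not pass. In wild-type mice it changed by -0.29 at 7 h and by -0.29 at 22 h (adjusted p = 0.0111 and 0.0104).

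Other probe sets of ribosomal protein genes gave like medians. Over all 100 probe sets of the members the median changes were -0.24 and -0.19 in *NOS2*-/- mice and -0.06 and -0.10 in wild-type mice at 7 h and 22 h, with 25 and 16 lower and 3 and 6 higher in *NOS2*-/- mice and 16 and 16 lower and 11 and 2 higher in wild-type mice. Over the 102 probe sets that name several genes they were -0.29 and -0.20 in *NOS2*-/- mice, with 33 and 27 lower and 1 and 2 higher, and -0.09 and -0.11 in wild-type mice, with 17 and 27 lower and 6 and 4 higher. Of all probe sets, 13.7% and 16% were lower and 8.78% and 11.6% higher in *NOS2*-/- mice at 7 h and 22 h. In wild-type mice 17.9% and 20% were lower and 14.4% and 12.8% higher. Among the 100, the share lower was below that of the array in wild-type mice. In *NOS2*-/- mice it was above that of the array at 7 h and near it at 22 h. For single genes the probe sets could differ. The second probe set of *Rpl22* (mean 9.23) changed by more than the one shown above, by -0.85 and -1.43 in *NOS2*-/- mice and by -0.54 and -1.32 in wild-type mice at 7 h and 22 h, and passed each time. The second one of *Rps15* passed each time as well, with -0.54 and -0.49 in *NOS2*-/- mice and -0.38 and -0.42 in wild-type mice. A dim probe set of *Rps9* (mean 8.28), a small-subunit protein, was higher in all 4 comparisons, by 0.77 and 0.66 in *NOS2*-/- mice and by 1.10 and 0.67 in wild-type mice, where its 2 other probe sets did not pass. A dim one of *Rps20* (mean 7.78) was higher by 0.35 and 0.39 in *NOS2*-/- mice and by 0.26 in wild-type mice at 7 h, and its 2 bright ones did not pass. None of the 5 further probe sets of *Rps10* passed in any of the 4 LPS comparisons, nor did the second, dim one of *Rps4x*. With the mean of all probe sets of a gene, *Rps10* lost its calls in all 4 comparisons (adjusted p = 0.0512 to 0.315), and so did *Rpl37a* (adjusted p = 0.0527 to 0.860). By this measure *Rps4x* lost its calls in *NOS2*-/- mice (adjusted p = 0.346 and 0.170) and kept those in wild-type mice.

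Many genes for building ribosomes were higher in the same lungs. Of 56 measured ribosome biogenesis genes, 27 were higher and 0 lower in *NOS2*-/- mice at 7 h and 25 and 0 at 22 h, and in wild-type mice 44 were higher and 3 lower at 7 h and 25 and 3 at 22 h. The share of all probe sets called higher was 8.78% and 11.6% in *NOS2*-/- mice and 14.4% and 12.8% in wild-type mice. Not called were 29 and 31 of the 56 in *NOS2*-/- mice and 9 and 28 in wild-type mice. Their median change was 0.48 and 0.34 in *NOS2*-/- mice and 0.55 and 0.26 in wild-type mice. *Nop58*, a core protein of box C/D snoRNPs, which methylate ribosomal RNA, rose 2.61-fold in *NOS2*-/- mice at 7 h (adjusted p = 2.07e-05) and 2.97-fold in wild-type mice (adjusted p = 2.53e-08). *Gnl3*, the nucleostemin gene, rose 2.32-fold in *NOS2*-/- mice and 2.46-fold in wild-type mice at 7 h. *Tsr1* and *Ltv1*, which assist in the maturation of the small subunit, rose by 1.25 and 1.18 log2 units in wild-type mice at 7 h. *Eif6*, which keeps new large subunits from joining early, rose by 0.99 in *NOS2*-/- mice at 7 h and by 0.99 in wild-type mice at 22 h. *Nolc1*, a nucleolar protein, and *Noc4l*, a nucleolar factor of the small subunit, rose by 1.25 and 1.11 in *NOS2*-/- mice at 22 h.

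Seen by mouse, the biogenesis genes separated all LPS from all saline lungs. The median of all 48 ribosomal protein genes did so within each genotype, by a narrow gap in wild-type mice, but not across the genotypes. The median biogenesis gene lay 0.60, 0.51 and 0.43 log2 units above the wild-type saline mean in *NOS2*-/- mice at 7 h after LPS, 0.50, 0.39 and 0.41 at 22 h and 0.06 in the *NOS2*-/- saline mouse. In wild-type mice it lay at 0.57, 0.56 and 0.55 at 7 h and 0.38, 0.16 and 0.27 at 22 h, against -0.01, 0.02, -0.04 and 0.01 after saline. All LPS mice were above all saline mice. The median of all 48 members lay between -0.21 and -0.046 in *NOS2*-/- LPS mice and at 0.12 in the *NOS2*-/- saline mouse, and between -0.23 and -0.054 in wild-type LPS mice, against -0.051 to 0.031 after saline. Thus *NOS2*-/- LPS 7 h replicate 1 lay above wild-type saline replicate 1, and so it did over the 42 members that are no variant forms (-0.0535 and -0.0545). The 33 members with a mean above 12, the limit set after seeing the signals, had medians of -0.10, -0.15 and -0.26 in *NOS2*-/- mice at 7 h, -0.13, -0.13 and -0.14 at 22 h and 0.12 in the *NOS2*-/- saline mouse. Wild-type mice had -0.08, -0.11 and -0.13 at 7 h and -0.10, -0.23 and -0.07 at 22 h, against -0.06, -0.00, 0.03 and 0.01 after saline. In these 33 the LPS and saline mice did not overlap, with a gap that was narrow, since wild-type LPS 22 h replicate 3 was at -0.07 and wild-type saline replicate 1 at -0.06.

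**Figure D3:**
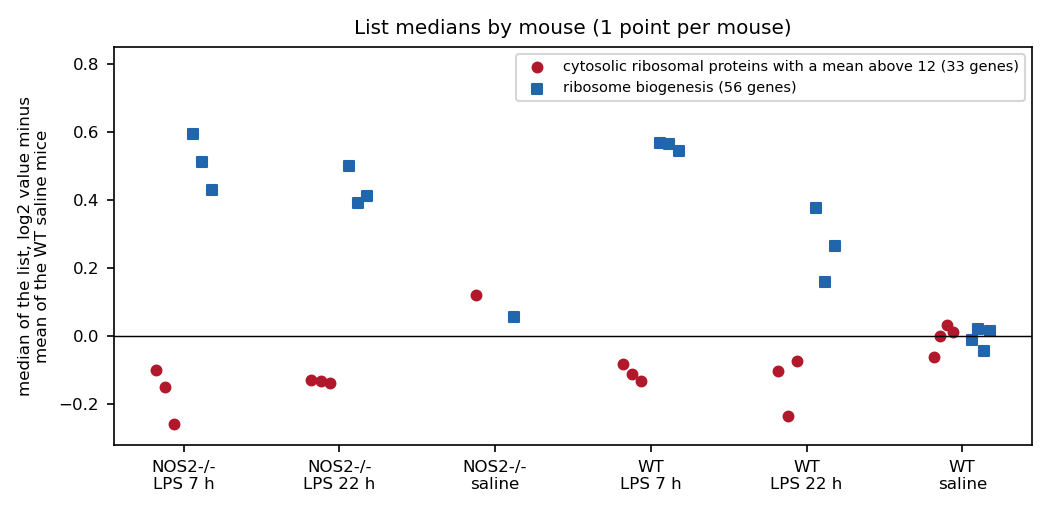
Median over 33 bright members (circles) and 56 ribosome biogenesis genes (squares) of the log2 value minus the mean of the wild-type saline mice, 1 point per mouse, for the 6 groups on the horizontal axis. After LPS the biogenesis medians lie between 0.16 and 0.60 and the medians of these 33 members between -0.26 and -0.07. Those of all 48 members, not drawn, overlapped between LPS and saline mice across the genotypes but not within either.

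Products of other TOP mRNAs, mostly translation factors, had medians below 0 as the members did. Of 18 measured, 6 were lower in *NOS2*-/- mice at 7 h and 3 at 22 h, with none higher, and in wild-type mice 5 were lower and 1 higher at 7 h and 8 lower at 22 h. Their medians were -0.30 and -0.27 in *NOS2*-/- mice and -0.12 and -0.23 in wild-type mice. To be set beside these counts and those of all lists below are the shares of all probe sets called. In *NOS2*-/- mice 8.78% and 11.6% were higher and 13.7% and 16% lower at 7 h and 22 h. In wild-type mice 14.4% and 12.8% were higher and 17.9% and 20% lower. The largest falls were those of *Vim*, the intermediate filament vimentin, which is no translation factor, and *Nap1l1*, a histone chaperone. *Nap1l1* changed by -0.59 and -1.12 in *NOS2*-/- mice and by -1.25 in wild-type mice at 22 h. *Vim* changed by -1.14 and -0.82 in *NOS2*-/- mice and by -1.15 and -1.07 in wild-type mice. *Eif3h* and *Eif3f*, subunits of initiation factor eIF3, changed by -0.56 and -0.56 in *NOS2*-/- mice at 7 h, *Eif4b* by -0.63 in wild-type mice at 22 h, and *Eef1d* by -0.48 in *NOS2*-/- mice at 22 h. *Npm1*, a nucleolar protein of ribosome assembly, was higher by 0.57 in wild-type mice at 7 h.

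Mitochondrial ribosomal proteins, which form a separate ribosome, numbered 74. In *NOS2*-/- mice 2 were higher and 21 lower at 7 h and 2 and 28 at 22 h, with medians of -0.14 and -0.16, and in wild-type mice 12 were higher and 9 lower at 7 h and 7 and 15 at 22 h, with medians of 0.02 and -0.06. *Mrpl42* changed by -1.22 and -1.24 in *NOS2*-/- mice, and *Mrpl52* and *Mrps18b* rose by 0.94 and 0.79 in wild-type mice at 7 h. Of 19 initiation factors of the eIF2 and eIF4F groups, 5 were higher and 0 lower in *NOS2*-/- mice at 7 h and 6 and 2 at 22 h, and in wild-type mice 9 and 0 at 7 h and 5 and 1 at 22 h. *Eif1a*, which guides scanning for the start codon, rose by 1.11 and 1.60 in *NOS2*-/- mice and by 1.19 and 1.28 in wild-type mice, and *Eif2ak2*, the interferon-induced kinase PKR that inhibits initiation, by 1.39 and 0.78 in *NOS2*-/- mice and by 1.19 in wild-type mice at 7 h.

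Of 21 genes of mTORC1 and MYC control, 4 were higher and 2 lower in *NOS2*-/- mice at 7 h and 5 and 6 at 22 h, and 7 and 6 in wild-type mice at 7 h and 6 and 5 at 22 h. *Myc* rose by 1.49 and 1.46 in *NOS2*-/- mice and by 1.76 and 0.90 in wild-type mice. *Ddit4*, an inhibitor of mTORC1, rose by 2.02 and 2.75 in *NOS2*-/- mice and by 1.87 and 1.82 in wild-type mice, and *Mxd1*, an antagonist of MYC, by 1.75 and 2.23 in *NOS2*-/- mice and by 1.85 and 1.13 in wild-type mice. *Tsc2*, which restrains mTORC1, changed by -0.94 in *NOS2*-/- mice at 7 h and by -0.89 and -1.07 in wild-type mice. Of 14 p53 targets, 3 were higher and 3 lower in *NOS2*-/- mice at 7 h and 7 and 3 at 22 h, and 6 and 2 in wild-type mice at 7 h and 5 and 2 at 22 h. *Cdkn1a*, the gene of the cell cycle inhibitor p21, rose by 2.40 and 3.04 in *NOS2*-/- mice and by 2.17 and 2.04 in wild-type mice.

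**Figure D4:**
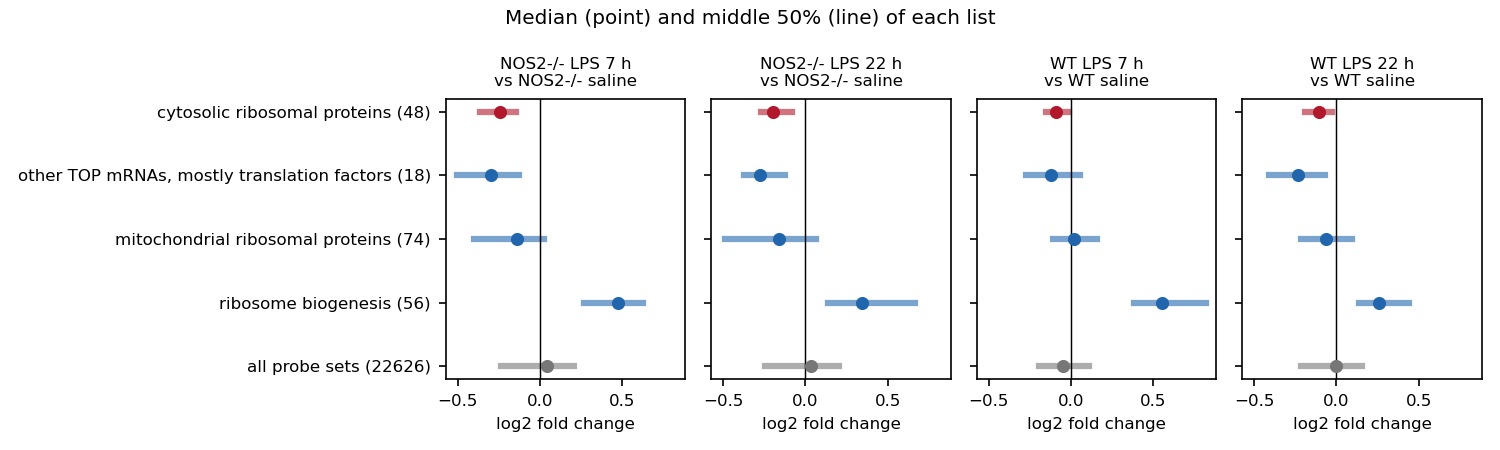
Log2 fold change after LPS against saline of the same genotype, as median (point) and middle 50% (line) of each gene list, with the number measured in brackets; panels are NOS2-/- at 7 h and 22 h and wild-type at 7 h and 22 h. The cytosolic ribosomal protein medians lie between -0.24 and -0.09, those of ribosome biogenesis between 0.26 and 0.55, and those of all probe sets between -0.05 and 0.04.

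Cell type markers moved with LPS too. The 13 measured neutrophil genes summed to a log2 signal of 15.88 to 16.11 in *NOS2*-/- mice at 7 h after LPS and 16.35 to 16.41 at 22 h, against 13.69 in the *NOS2*-/- saline mouse, and to 16.06 to 16.21 and 16.28 to 16.42 in wild-type mice, against 13.19 to 13.44 after saline. The 13 endothelial genes summed to 14.54 to 14.77 in *NOS2*-/- mice at 7 h and 14.76 to 14.79 at 22 h, against 15.25 after saline, and to 14.59 to 14.71 and 14.67 to 14.998 in wild-type mice, against 15.32 to 15.40. Of 9 B cell genes, 3 were lower in *NOS2*-/- mice at 7 h and 7 at 22 h, and 4 and 7 in wild-type mice, with none higher. Of the neutrophil genes, 11 rose in *NOS2*-/- mice at 7 h and 13 at 22 h, and 13 and 11 in wild-type mice, and of the endothelial genes 8 were lower in each of the 4 comparisons, with 1 and 2 higher in *NOS2*-/- mice and 2 and 3 in wild-type mice. Their part in the falls of ribosomal protein genes was not tested.

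Among 12345 other genes, those whose profile over the 17 mice was most like the median profile of the members were *Arhgap1* (Pearson r = 0.95), *Atp5g2* (0.95), *Romo1* (0.95), *Spr* (0.94) and *Atp5j2* (0.94). These correlations are over mice that share groups and normalization and are given as a description.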

How the data were processed

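Lung RNA was hybridised to 1 Affymetrix MOE430A array per mouse. The deposited table held log2 values per probe set, which the authors had background-corrected, normalized and summarised with the affy package for R. The version and options of affy and the genome build were not given in the sources used here. Medians of the arrays ran between 8.46 and 8.55 and single values between 4.77 and 15.2. No scan date or slide was used. Precision is limited by how few arrays each group has.

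Of 22690 probe sets, 64 controls were left out and 22626 tested. By the platform annotation 20380 name 1 gene, 691 several and 1555 none. A gene was represented by its probe set with the highest mean. The deposited values were fitted in limma 3.58.1 (R 4.3.3) with 6 group means over all 17 arrays and default empirical Bayes variances, with p-values adjusted by Benjamini-Hochberg over all 22626 probe sets and a call at an adjusted p under 0.05. The model was tested on simulated data. A list's summed level is log2 of the sum of its genes' linear signals. Tables were joined in Python 3.11.15 with pandas 2.3.3, and plots drawn with matplotlib 3.10.9.

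The members and gene lists were chosen with earlier results of these data known. Genes were named by these rules: up to 8 called members with the largest rise and 8 with the largest fall in each comparison, the variant forms with the genes they are named after, *Rplp0*, *Rplp2* and *Rpsa*, the 5 brightest and 5 dimmest members, the 5 with the largest and smallest range of group means, members whose probe sets disagreed, up to 4 called genes with the largest change per pathway list, and the 5 genes most like the median member. From the named genes, those of most use to the text were printed. Alternatives were quantile normalization, subtraction of array medians, only the compared groups in the fit, only probe sets above the 40th percentile of the mean, trended and robust variances, array weights, the replicate number as a block, the mean of all probe sets of a gene, core subunits only, a 1.5-fold minimum, wild-type saline mice as the NOS2-/- control, and each array left out in turn. Leaving wild-type LPS 22 h replicate 2 out of every comparison, and the genotype difference in the LPS response, were added after seeing the data.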

Additional observations from a re-analysis of the deposited data

Results flagged for a closer look

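The 4 wild-type saline mice were the only group tested for 1 mouse far from the others. Of 49 values tested there, 3 stood out, where chance picks out about 1 in 20. No mouse of another group could be picked out by this test. *Rpl22l1* read 11.03 in replicate 3, the highest of its group, where the others lay between 10.87 and 10.88. *Rpl38*, which in mice is needed for translation of *Hox* mRNAs, read 13.27 in replicate 1, the lowest, where the others lay between 13.41 and 13.44. *Rps6* read 9.002 in replicate 3, the lowest, where the others lay between 9.16 and 9.19. With all 17 arrays no member passed the test of the genotype difference in the LPS response, which does not show that the responses were alike.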

How the results depend on the processing

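Of 449 values of single named members under alternatives, 402 kept their call, 47 lost it and 0 turned their sign. Of 153 counts of called members 113 stayed within 1.5 times the value reported, and of 144 median changes 128 moved by less than the SD between replicates of 0.05. With quantile normalization, 22 members were called in NOS2-/- mice at 22 h (45.8%, against 30% of all probe sets). In wild-type mice 27 were called at 7 h (56.2%, against 34%, median -0.16) and 16 at 22 h (33.3%, against 34.9%). Between genotypes 4 were called at 22 h (8.33%, against 19.3%, median -0.035, and 0.011 at 7 h). In wild-type mice 6 were called at 22 h against 7 h (12.5%, against 12.9%, median 0.061). The median genotype difference in that change became -0.054. Array weights gave wild-type LPS 22 h replicate 2 a weight of 0.0438. With them 26 and 24 members were called in NOS2-/- mice at 7 h and 22 h (54.2% and 50%, against 39.7% and 43.3% of all probe sets). In wild-type mice 24 were called at 7 h (50%, against 49.6%), and the 22 h median was -0.039. Between genotypes 11 and 6 were called (22.9% and 12.5%, against 44% and 32.5%). At 22 h against 7 h, 3 were called in NOS2-/- mice (6.25%, against 28.5%) and 7 in wild-type mice (14.6%, against 20.1%, median 0.015). The genotype difference of that change had 1 call (2.08%, against 13.6%, median 0.032). With a 1.5-fold minimum 0 and 1 members remained in NOS2-/- mice at 7 h and 22 h, and 2 and 0 in wild-type mice. With the mean of all probe sets the NOS2-/- medians were -0.19 and -0.12, and 3 members were called between genotypes at 22 h (6.25%, against 19.2% of all genes). At 22 h against 7 h, 1 was called in NOS2-/- mice (2.08%, against 9.13%) and 4 in wild-type mice (8.33%, against 13.6%). Against the 4 wild-type saline mice the NOS2-/- medians were -0.12 and -0.088. With only the compared groups fitted, 29 were called in NOS2-/- mice at 22 h (60.4%, against 52.9% of all probe sets). By that fit 3 were called between genotypes at 7 h (6.25%, against 25.5%) and 0 in wild-type mice at 22 h against 7 h (2.06% of all probe sets). With array medians subtracted 2 (4.17%, against 3.55%), and above the 40th percentile 1 (2.27%, against 4.52%), were called between genotypes at 7 h. The cause of these shifts was not tested.

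Replicate numbers were not taken as pairs of mice. Of 30 same-number pairs of arrays, 4 correlated above 0.1 in their deviations from the group means (range -0.38 to 0.36). Pairs with different numbers ranged from -0.40 to 0.42. Deviations within a group depend on each other, so these correlations cannot decide whether the numbers pair mice. With the replicate block, 9 members were called in NOS2-/- mice at 7 h (18.8%, against 18.4% of all probe sets) and 7 at 22 h (14.6%, against 23.4%). Between genotypes 1 was called at 7 h (2.08%, against 1.1%).

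When each array was left out in turn, the count of called members ranged from 10 to 25 in NOS2-/- mice at 7 h (median change -0.28 to -0.20), 7 to 23 at 22 h (-0.20 to -0.18), 11 to 19 in wild-type mice at 7 h (-0.10 to -0.07), 9 to 15 at 22 h (-0.14 to -0.049), 0 to 7 between genotypes at 7 h (-0.09 to -0.02), 1 to 3 at 22 h (-0.01 to 0.06), 0 to 1 in NOS2-/- mice at 22 h against 7 h (0.00 to 0.08), 0 to 3 in wild-type mice (-0.067 to 0.022) and 0 to 0 in the genotype difference of that change (0.033 to 0.14). These include the alternative, chosen after seeing the data, that leaves wild-type LPS 22 h replicate 2 out of every comparison. The share of all probe sets called moved as well. At the lowest and highest counts it was 19.6% and 38.1% in NOS2-/- mice at 7 h and 23.6% and 41.2% at 22 h. In wild-type mice at 7 h it was 26.4% and 46.1%. The single NOS2-/- saline mouse could not be left out.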
